A study of Mus musculus with 39 samples.

Results

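The 45 genes described here encode the machinery that copies DNA in S phase, and they were followed in microglia and in border-associated macrophages (BAM) of the embryonic mouse brain. They were chosen by symbol from a list of replication genes named for their role in copying DNA. No measured value entered the rule, but the list was chosen with earlier results of these data known. Each of the 45 symbols matched 1 of 53379 Ensembl gene identifiers in the count table, and all 45 passed the filter on low counts that left 22061 genes for testing. By role the list holds 11 genes of origin recognition and licensing, 8 of origin firing and helicase activation, 6 of the sliding clamp and its loader, 9 of primase and the DNA polymerases, 2 of Okazaki fragment maturation, 5 of nucleotide supply, 2 of chromatin assembly and 2 of single-strand binding.

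Before S phase, the origin recognition complex, Cdc6 and Cdt1 load a ring of Mcm subunits, encoded by Mcm2 to Mcm7, onto each origin. Kinases then recruit Cdc45 and the GINS complex, which turn the loaded ring into the working helicase, and primase, polymerases, the clamp Pcna and its loader follow behind it. Transcription of most of these genes is set by E2F factors and peaks as cells enter S phase, so their summed level in a tissue or sorted population is widely read as a mark of cycling cells. Microglia, the macrophages of the brain parenchyma, and BAM, the macrophages of the meninges, choroid plexus and perivascular spaces, both arise from yolk sac progenitors and both divide in the embryonic brain.

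RNA was sequenced from microglia and BAM sorted by flow cytometry from brains of C57Bl/6 embryos at E10.5, E11.5, E12.5, E14.5, E16.5 and E18.5, with no other genotype and no treatment in any group. In order of stage there were 4, 3, 3, 2, 3 and 4 microglia libraries (n = 19) and 4, 3, 3, 3, 3 and 4 BAM libraries (n = 20). The labels name neither the surface markers of the sort nor the litters or pools behind a library, so p-values measure only the spread between these samples, which may be technical. Sorted bulk RNA also cannot tell fewer cells in S phase from less RNA of these genes per cell.

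Library totals ran from 10692763 to 47182711 counts. Library names fall into 2 numbered series, R8 with 23 libraries and R10 with 16, and every library of the first pair of stages is in R10, as is replicate 1 of each population at E18.5. Of 8 microglia markers, 5 were called lower in BAM at E10.5 and all 8 at each later stage, and of 8 BAM markers 7 were called higher in BAM from E10.5 to E12.5 and 8 from E14.5 on. E10.5 microglia held 2351 to 4078 CPM of the BAM markers, against 8261 to 10660 CPM in E10.5 BAM. Microglia E12.5 replicate 3 held 5566 CPM of the BAM markers, against 2965 and 1832 CPM in replicates 1 and 2, and 3899 CPM of the microglia markers, against 6940 and 6017 CPM. Neural progenitor markers, 8 genes summed, were at 438 to 532 CPM (counts scaled to the library total) in E12.5 microglia and at 617, 181 and 158 CPM in E12.5 BAM replicates 1, 2 and 3. In E10.5 libraries that sum was 52.5 to 117 CPM, and the sum of 7 mesenchymal and mural markers was 2.48 to 31.5 CPM at E10.5 against 116 to 686 CPM at E18.5. Of 6 lymphoid markers, Cd3e and Ncr1 were listed at 0 in every group, but Il7r had a mean of 9.34 CPM in E10.5 microglia. The median lymphoid sum at E10.5 was 10.4 CPM in microglia and 0.142 in BAM. Median sums of 5 monocyte markers were 63.7 and 9.78 CPM there, and those of 8 mast cell and granulocyte markers 43.6 and 3.63. At E18.5 the median mast cell and granulocyte sum was higher in BAM, at 17.7 CPM against 5.84 in microglia. The part of these markers in the results below was not tested.

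The RefSeq sequence around the start of 5 of the genes is shown first. The 5 are examples picked after their values were seen, and other genes, Cdc6 among them, differed as much between the populations. Mcm2, Pold1 and Chaf1a differed between BAM and microglia to a degree that changed with stage, Mcm6 was among the largest differences at E12.5 and E16.5, and Rrm2 was the largest at E18.5. Each window (GRCm38.p6) runs from 250 bases before to 50 bases after the annotated start, 5′ to 3′ on the gene's strand. Capitals mark a core E2F site, here TTCCCGC or TTGGCGC on either strand.
Mcm2, chr6:88898731-88899030, minus strand: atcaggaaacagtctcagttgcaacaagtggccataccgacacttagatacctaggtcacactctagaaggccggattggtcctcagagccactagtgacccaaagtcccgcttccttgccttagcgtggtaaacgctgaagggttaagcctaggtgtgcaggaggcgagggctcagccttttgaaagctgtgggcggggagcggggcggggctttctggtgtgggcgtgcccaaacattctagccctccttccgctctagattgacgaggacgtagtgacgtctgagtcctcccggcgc
Mcm6, chr1:128359656-128359955, minus strand: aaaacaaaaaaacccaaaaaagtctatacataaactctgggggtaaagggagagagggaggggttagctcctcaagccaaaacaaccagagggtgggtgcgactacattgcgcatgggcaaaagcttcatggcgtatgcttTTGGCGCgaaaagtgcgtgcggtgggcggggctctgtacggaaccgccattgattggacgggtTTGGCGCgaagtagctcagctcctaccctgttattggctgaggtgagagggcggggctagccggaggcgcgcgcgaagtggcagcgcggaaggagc
Pold1, chr7:44548766-44549065, minus strand: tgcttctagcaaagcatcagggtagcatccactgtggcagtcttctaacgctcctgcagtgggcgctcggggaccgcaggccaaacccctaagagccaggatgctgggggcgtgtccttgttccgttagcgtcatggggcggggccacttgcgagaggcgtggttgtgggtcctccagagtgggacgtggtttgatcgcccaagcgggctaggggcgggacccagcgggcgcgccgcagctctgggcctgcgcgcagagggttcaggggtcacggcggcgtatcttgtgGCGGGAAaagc
Chaf1a, chr17:56040166-56040465, plus strand: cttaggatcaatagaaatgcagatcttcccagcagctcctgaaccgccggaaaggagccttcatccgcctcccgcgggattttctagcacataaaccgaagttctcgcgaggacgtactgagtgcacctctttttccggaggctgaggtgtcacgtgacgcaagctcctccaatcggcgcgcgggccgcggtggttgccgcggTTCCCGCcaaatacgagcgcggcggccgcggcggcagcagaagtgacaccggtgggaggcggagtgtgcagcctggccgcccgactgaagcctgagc
Rrm2, chr12:24708004-24708303, plus strand: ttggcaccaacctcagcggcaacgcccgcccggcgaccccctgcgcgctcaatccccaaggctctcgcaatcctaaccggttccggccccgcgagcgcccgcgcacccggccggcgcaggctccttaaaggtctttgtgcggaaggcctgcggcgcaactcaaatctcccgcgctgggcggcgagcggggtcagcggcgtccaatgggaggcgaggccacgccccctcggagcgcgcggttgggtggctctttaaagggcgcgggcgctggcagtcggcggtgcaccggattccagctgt
The Mcm6 window held 2 such cores, those of Pold1 and Chaf1a 1 each, and those of Mcm2 and Rrm2 none, which says only that these letters are absent from those 300 bases.

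RefSeq gave 45 windows for 38 of the genes, some with several starts, and none was used for Gins1, Gins2, Gins4, Prim2, Rfc2, Pole and Mcm4. The E2F core stood in 23 of the 45 windows (51.1%), in 21 of the 38 genes, against 6.81% of all 32851 windows of the same length. CCAAT, the letters bound by the factor NF-Y, stood in 24 windows (53.3%) against 37.4% of all. TTTGAA, the letters of the cell cycle homology region, stood in 8 (17.8%) against 17.9% of all, and both strands were searched for each. Among genes with a window, the core was present in 12 of 17 that were called higher in BAM at E12.5 and in 9 of 21 that were not, given as a description with no test. Of 35 core matches, 24 began within 100 bases of the start, where overlapping windows of a gene can count a match more than once.

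**Figure D1:**
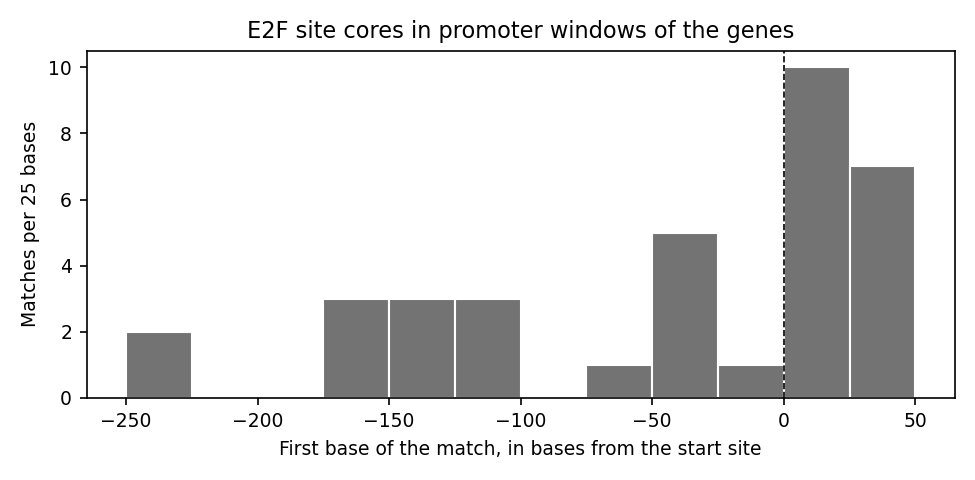
Number of E2F core matches (vertical axis, per 25 bases) by distance of the first matching base from the annotated start (horizontal axis, bases, dashed line at the start) in 45 promoter windows of 38 replication genes. Of the 35 matches, 24 lie within 100 bases of the start, and a gene with several starts contributes each of its windows.

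The replication genes were at their highest at the first stage. Their summed level fell at each later stage in BAM and at each stage up to E16.5 in microglia, which were higher again at E18.5. Summed over the 45 genes, microglia held 9163 ± 457 CPM at E10.5 (SD, n = 4), 6471 ± 722 at E11.5 (n = 3), 4196 ± 271 at E12.5 (n = 3), 3681 ± 142 at E14.5 (n = 2), 2675 ± 50.8 at E16.5 (n = 3) and 3150 ± 327 at E18.5 (n = 4). BAM held 9054 ± 744 CPM at E10.5 (n = 4), 7182 ± 327 at E11.5, 5973 ± 368 at E12.5, 4028 ± 315 at E14.5, 3607 ± 112 at E16.5 (n = 3 each) and 2796 ± 348 at E18.5 (n = 4). Group means at E10.5 thus lay within 1 SD of each other, BAM lay above microglia at E12.5 and E16.5 with no overlap of libraries, and at E18.5 the BAM libraries (2388 to 3239 CPM) overlapped those of microglia (2886 to 3607 CPM). BAM had their lowest level at E18.5, microglia at E16.5.

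**Figure D2:**
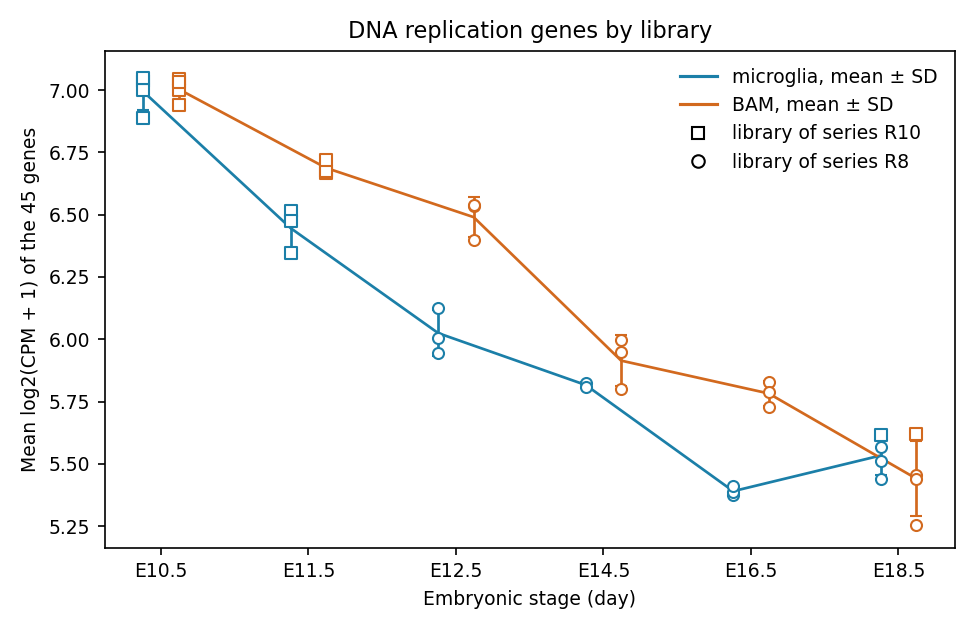
Mean log2(CPM + 1) of the 45 replication genes (vertical axis) in each of 39 libraries by embryonic stage (horizontal axis), microglia in blue and BAM in orange, squares for series R10 and circles for R8, and lines and bars for the group mean ± SD. Group means fall from 6.99 to 5.39 at E16.5 and 5.53 at E18.5 in microglia and from 7.003 to 5.44 in BAM.

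The fall was shared by nearly the whole list. The highest group mean was at E10.5 for all 45 genes in microglia and for 44 in BAM, where Pola1, the catalytic subunit of the polymerase that starts each strand, had 130 ± 6.47 CPM at E11.5 and 120 ± 13.99 at E10.5. Lowest means fell at E16.5 for 32 genes and at E18.5 for 12 in microglia, and at E18.5 for 41 in BAM. Per kilobase of exon, Mcm3 stood first in microglia at E12.5 with 95.0 ± 9.15 CPM, followed by Pcna with 77.2 ± 3.11. In BAM at that stage Mcm6 and Mcm3 were not separable, at 119 ± 11.48 and 118 ± 9.27 CPM per kilobase. Fen1, the flap nuclease of Okazaki fragments, stood last in both with 1.72 ± 0.30 and 2.54 ± 0.41, but 84.2% of its exon bases also belong to other genes of the table, so its level is uncertain. Gins2 (67.3%) is the only other member sharing over 50% of its exon bases; 16 of the 45 share some, and Pcna and Tyms have pseudogenes named after them.

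From E10.5 to E18.5, all 45 genes fell in BAM and 43 in microglia, where the exceptions were Cdc7 and Pole (edgeR quasi-likelihood test, Benjamini-Hochberg adjusted p under 0.05 over all 22061 genes, here and below "called"). The median log2 fold change was -1.65 in BAM and -1.36 in microglia, against 0.29 over all tested genes in each. Of all tested genes, 14.8% were called lower and 22.8% higher in BAM, and 14.4% lower and 20.9% higher in microglia. No member was called higher, by DESeq2 or at an unadjusted p under 0.05 either. The share of the E10.5 level left at E18.5 ran from 16.1% for Rrm2 in BAM to 77.5% for Cdc7 in microglia. E10.5 libraries are all of series R10. Within R10 alone, where each population has 1 E18.5 library whose spread is borrowed from the remaining groups, 39 genes were lower in BAM (7.06% of all tested genes in that fit) and 35 in microglia (5.61%).

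Rrm2, the small and S phase-limited subunit of ribonucleotide reductase, fell furthest in BAM. Its 4 E10.5 libraries held 392, 436, 349 and 370 CPM and its 4 E18.5 libraries 82.7, 47.9, 52.1 and 66.6 (log2 -2.66 ± 0.16, SE here and for other log2 values, adjusted p = 9.89e-15). Every late library thus lay far below every early one. In microglia the steepest fall was that of Orc1, the origin recognition subunit that comes and goes with the cycle: 26.6, 24.4, 22.8 and 28.3 CPM at E10.5 became 3.23, 5.89, 4.31 and 4.04 (log2 -2.50 ± 0.32, adjusted p = 1.16e-07). Cdc6, which loads the Mcm ring, fell by 2.41 ± 0.18 in microglia and 2.14 ± 0.18 in BAM on the log2 scale. Mcm10, needed to start the helicase, fell by 2.21 ± 0.24 and 2.33 ± 0.24, and Chaf1a, the large subunit of the histone chaperone CAF-1, by 1.94 ± 0.14 and 2.21 ± 0.14. In the remaining roles the largest falls in microglia were those of Rfc5 (1.91 ± 0.15), Lig1 (1.72 ± 0.17), Dut (1.72 ± 0.22), Rpa1 (1.69 ± 0.13) and Prim2, the second primase subunit (1.25 ± 0.18). In BAM they were those of Mcm5 (2.33 ± 0.12), Fen1 (2.18 ± 0.28), Rfc4 (1.92 ± 0.20), Pole2 (1.66 ± 0.23) and Rpa1 (1.55 ± 0.13).

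Smaller losses were seen for Tk1, the thymidine salvage kinase, which fell by 0.53 ± 0.17 in microglia (adjusted p = 0.0148) and 0.65 ± 0.17 in BAM (adjusted p = 0.00277). Cdc7, the kinase that fires licensed origins, had 55.5 ± 6.603 CPM in E10.5 microglia and 43.0 ± 12.4 by the last stage (log2 -0.32 ± 0.23, adjusted p = 0.301). Pole, the leading-strand polymerase, had 71.3 ± 13.1 and 44.8 ± 5.56 CPM there (log2 -0.61 ± 0.26, adjusted p = 0.0627). In BAM both genes were called, at -0.87 ± 0.23 and -1.19 ± 0.26.

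Part of the fall came in the first day. Between E10.5 and E11.5, which both belong to series R10, 16 genes fell in microglia and 2 in BAM, with medians of -0.50 and -0.33 and none called higher. Over all tested genes 3.02% were called lower and 5.24% higher in microglia, and 1.44% lower and 2.98% higher in BAM, with an all-gene median of 0 in each. In microglia all 45 values were below 0. Rfc5, a subunit of the clamp loader, fell by 0.99 ± 0.16 (adjusted p = 3.74e-05), and Prim1, the catalytic subunit of primase, by 0.96 ± 0.15 (adjusted p = 3.77e-05). Prim1 had 97.6, 81.2, 75.6 and 101 CPM at E10.5 in microglia and 54.7, 42.0 and 37.2 at E11.5, with no overlap. Orc6, Dut and Chaf1b also fell there, by 0.87 ± 0.21, 0.85 ± 0.24 and 0.60 ± 0.15. The BAM calls were Orc2, an origin recognition subunit (-0.86 ± 0.20, adjusted p = 0.00723), and Mcm5 (-0.47 ± 0.13, adjusted p = 0.0268).

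These counts rested on few libraries. In microglia the 16 fell to 6 without E11.5 replicate 1, to 9 without E10.5 replicate 1 or replicate 3 and to 10 without E11.5 replicate 3 or E10.5 replicate 4, while DESeq2 called 27. In BAM the 2 became 1 without E10.5 replicate 1, 0 without E11.5 replicate 2, 4 without E10.5 replicate 3 and 8 by DESeq2. Whether the step differed between the populations was not tested for this pair of stages.

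From E11.5 to E12.5 the summed level went from 6471 to 4196 CPM in microglia and from 7182 to 5973 in BAM. All libraries change from series R10 to R8 at that step, so stage and series cannot be told apart there, and it was not tested. A further fall, within series R8, ran from E12.5 to E16.5. It took in 16 genes in microglia (median -0.61, all tested 0.03) and 24 in BAM (median -0.71, all tested -0.01). The background was 2.18% lower and 1.83% higher in microglia, and 1.95% lower and 2.75% higher in BAM. In both populations all 45 log2 values were below 0 and none was called higher. The call was shared by 12 genes, namely Cdc6, Cdt1, Mcm4, Mcm5, Rfc4, Rfc5, Rrm1, Rrm2, Chaf1a, Chaf1b, Rpa1 and Rpa2. The BAM count fell to 11 without E16.5 replicate 1 and to 12 without E12.5 replicate 2.

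In microglia the largest fall over these stages was that of Cdc6, from 44.3, 45.6 and 48.9 CPM to 16.8, 20.9 and 20.8 (log2 -1.21 ± 0.20, adjusted p = 0.000274). Dut, which keeps uracil out of DNA, fell by 1.02 ± 0.26, Chaf1b by 0.95 ± 0.16, Rpa1, the large subunit of the single-strand binding protein, by 0.94 ± 0.14, Rfc4 by 0.90 ± 0.22 and Gins2 by 0.88 ± 0.26. Of the 9 primase and polymerase genes, 0 were called in microglia and Pold1, Prim1 and Pola1 in BAM, and whether the change over these stages differed between the populations was not tested. The largest falls in BAM were those of Gins3 (-1.07 ± 0.26), Rrm2 (-1.05 ± 0.18), Fen1 (-1.05 ± 0.32), Gins1 (-1.03 ± 0.27) and Mcm5 (-1.01 ± 0.14), and in the remaining roles those of Chaf1b (-0.88 ± 0.16), Rfc4 (-0.81 ± 0.22), Rpa1 (-0.77 ± 0.14) and Pold1 (-0.75 ± 0.16). Mcm5 stood at 374, 431 and 395 CPM in E12.5 BAM and at 188, 181 and 198 at E16.5, so that no library came near the other group.

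The last interval, E16.5 to E18.5, held few calls. In microglia 2 genes rose, Rrm1, the large subunit of ribonucleotide reductase (0.77 ± 0.15, adjusted p = 0.00865), and Mcm4 (0.71 ± 0.17, adjusted p = 0.0484), and none fell, where 0.403% of all tested genes were called higher and 0.113% lower. Rrm1 moved from 163, 156 and 148 CPM to 320, 211, 218 and 216. The first of these 4, replicate 1, is the R10 library; without it neither gene was called, nor without E16.5 replicate 2, while leaving out E18.5 replicate 2 gave 5 calls. Without E16.5 replicate 1, E16.5 replicate 3 or E18.5 replicate 4 there was 1. In BAM only Chaf1a was called, from 63.7, 53.4 and 42.7 CPM to 37.6, 35.9, 30.2 and 29.6 (-0.69 ± 0.14, adjusted p = 0.0396), where 0.0272% of tested genes were lower and 0.0408% higher. That call was lost without any 1 of 5 libraries, namely BAM E16.5 replicate 1 or 2 and E18.5 replicate 2, 3 or 4. Of the 45 values, 38 were above 0 in microglia (median 0.24) and 42 below 0 in BAM (median -0.37), and all-gene medians were -0.02 and 0.03.

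**Figure D3:**
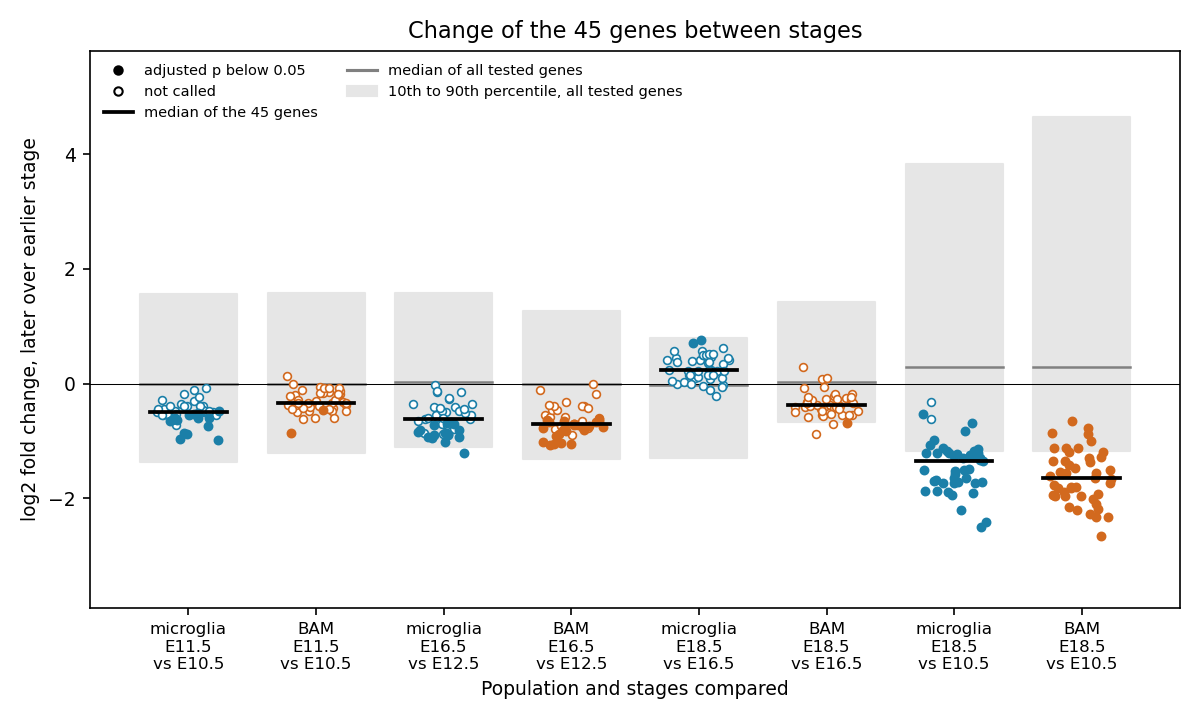
Log2 fold change of each of the 45 genes (vertical axis) between pairs of stages (horizontal axis) in microglia and BAM, 1 point per gene (filled where the adjusted p is below 0.05), a black line for their median, and a grey line and band for the median and the 10th to 90th percentile of all tested genes. Medians are -0.50 and -0.33 from E10.5 to E11.5, -0.61 and -0.71 from E12.5 to E16.5, and 0.24 in microglia against -0.37 in BAM from E16.5 to E18.5.

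Compared at each stage, no replication gene was called between BAM and microglia at E10.5. BAM were higher in 19 genes at E12.5 and 16 at E16.5, but in 2 at E14.5, near the share of all tested genes. At E18.5 BAM were lower in 6 of the 45, not far above the share of all tested genes. At E10.5 no gene was called in either direction by edgeR or DESeq2 and 2 had an unadjusted p under 0.05, while 2.32% of all tested genes were called higher in BAM and 2.16% lower. Leaving out BAM E10.5 replicate 1 gave 1 call. At E11.5 BAM were higher in 3 genes and lower in none, against 2.84% and 3.83% of all tested genes, DESeq2 called 4, and the block of adjacent library numbers gave 6. At E12.5 they were higher in 19 and lower in none, against 4.12% and 4.42%, at E14.5 higher in 2 and lower in none, against 3.93% and 3.25%, and at E16.5 higher in 16 and lower in none, against 7.09% and 6.74%. At E18.5 none was higher and 6 were lower, against 6.7% and 8.75%, DESeq2 called 1 higher and 7 lower, and edgeR with adjacent library numbers as a block called 1 higher and 11 lower.

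The medians over the 45 genes in stage order were -0.02, 0.20, 0.46, 0.15, 0.48 and -0.13, where the all-gene medians lay between -0.09 and 0.01. Every BAM library lay above every microglia library for 2 of the 45 genes at E10.5 (3.6% of all tested genes), 11 at E11.5 (8.78%), 32 at E12.5 (11.4%), 13 at E14.5 (14.3%), 27 at E16.5 (14.1%) and 1 at E18.5 (12%). Every BAM library lay below every microglia library for 1 gene at E10.5 (3.83%), 1 at E11.5 (8.93%), 0 at E12.5 (2546 of the 22061 tested genes), 3 at E14.5 (20.9%), 2 at E16.5 (19.3%) and 5 at E18.5 (9.27%). Higher calls at E12.5 or E16.5 came to 24 genes, of which 11 were called at both: Cdc6, Mcm4, Mcm6, Mcm10, Gins2, Lig1, Rrm1, Tk1, Chaf1a, Chaf1b and Rpa2. Microglia at E14.5 had 2 libraries, and both calls of that stage, Lig1 (0.71 ± 0.22, adjusted p = 0.0397) and Tyms (0.64 ± 0.20, adjusted p = 0.0469), were lost without either of them or without BAM E14.5 replicate 1 or 2.

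**Figure D4:**
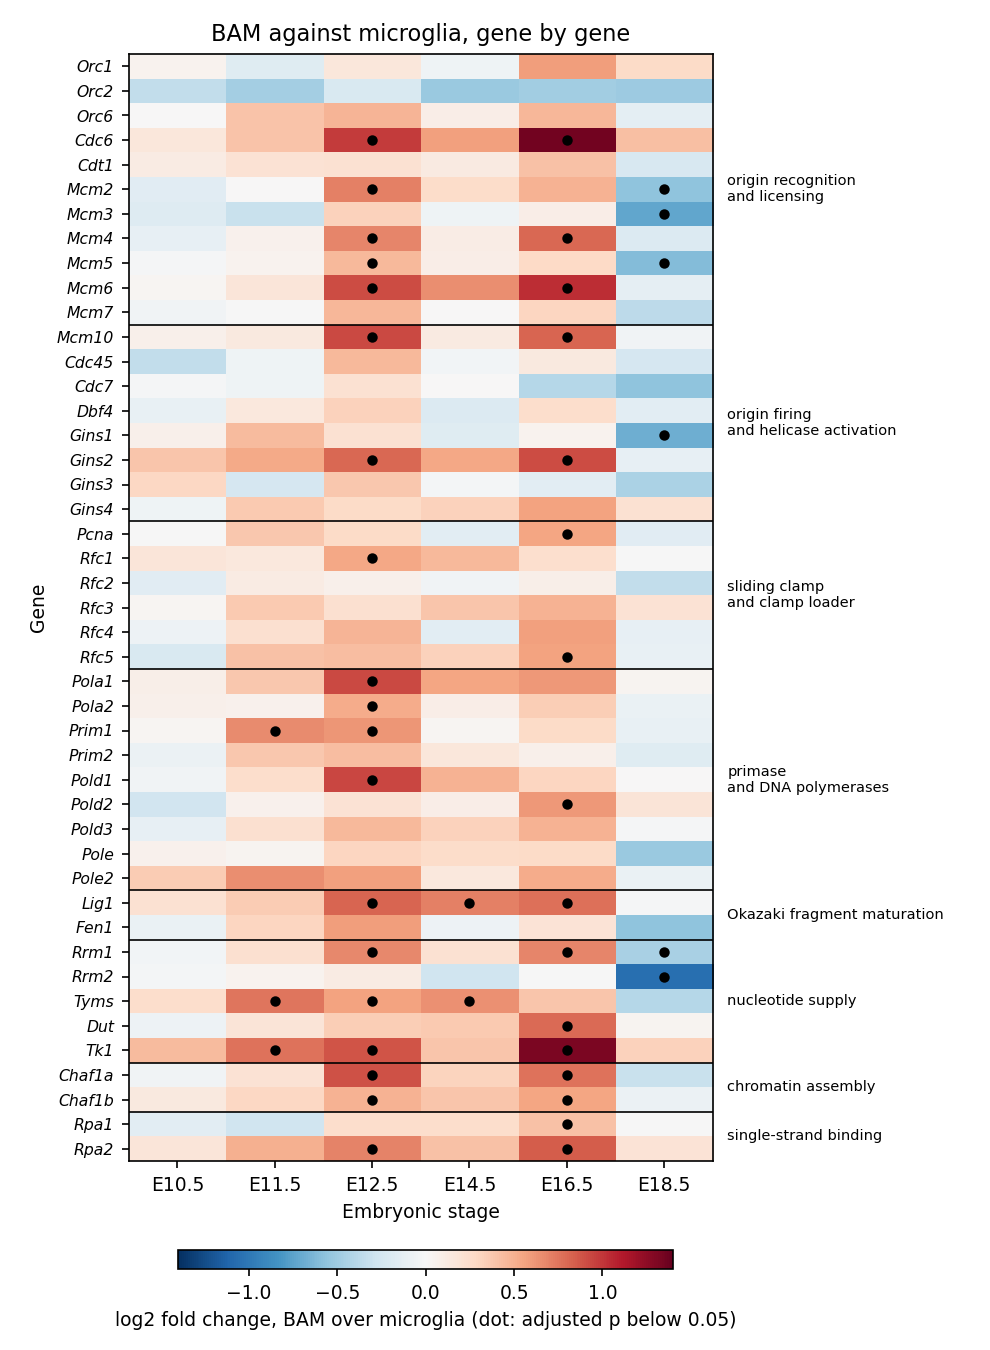
Log2 fold change of BAM over microglia (colour, red higher in BAM, blue lower) for each of the 45 genes (rows, grouped by role) at 6 stages (columns), with a dot where the adjusted p is below 0.05. Dots are absent at E10.5, number 19 at E12.5 and 16 at E16.5 on red fields, and 6 at E18.5 on blue fields.

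Licensing genes held 5 of the 19 calls at E12.5, Cdc6, Mcm2, Mcm4, Mcm5 and Mcm6, out of 11. Cdc6 was the largest, at 44.3, 45.6 and 48.9 CPM in microglia and 77.9, 104 and 87.5 in BAM (log2 0.98 ± 0.20, adjusted p = 0.000632). At E16.5 the difference in Cdc6 was larger, with 16.8, 20.9 and 20.8 CPM against 47.9, 49.2 and 47.9 (log2 1.36 ± 0.20, a 2.56-fold difference, adjusted p = 4.79e-06). The groups were apart at both stages. Cdc6 was not called at E18.5, where 29.1, 29.5, 18.3 and 20.4 CPM in microglia stood against 44.9, 36.0, 27.2 and 30.9 in BAM.

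The subunits of the Mcm ring were each higher in BAM at E12.5, and no test compared the subunits with each other. In E12.5 microglia Mcm2 had 184, 199 and 217 CPM, Mcm3 318, 370 and 382, Mcm4 152, 158 and 156, Mcm5 292, 301 and 295, Mcm6 283, 275 and 335, and Mcm7 170, 224 and 190. In BAM of that stage Mcm2 had 315, 349 and 304, Mcm3 406, 442 and 475, Mcm4 220, 299 and 218, Mcm5 374, 431 and 395, Mcm6 494, 585 and 588, and Mcm7 272, 302 and 224. BAM libraries lay above microglia for every subunit, narrowly so for Mcm7, and 4 of the 6 differences were called. Mcm6 led with 0.92 ± 0.20 (adjusted p = 0.00154), then Mcm2 with 0.70 ± 0.18, Mcm4 with 0.68 ± 0.18 and Mcm5 with 0.45 ± 0.13, while Mcm7 (0.46 ± 0.16, adjusted p = 0.0632) and Mcm3 (0.32 ± 0.17, adjusted p = 0.322) did not pass. At E16.5 only Mcm6 (1.03 ± 0.20) and Mcm4 (0.80 ± 0.18) of the 6 were called.

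At E18.5, 3 of the ring genes stood the other way round. Mcm3 had 382, 292, 280 and 313 CPM in microglia and 258, 218, 167 and 174 in BAM (-0.73 ± 0.15, adjusted p = 0.000346), Mcm5 had 218, 186, 170 and 180 against 156, 119, 117 and 141 (-0.60 ± 0.12, adjusted p = 0.000191), and Mcm2 had 229, 150, 151 and 165 against 139, 123, 119 and 126 (-0.56 ± 0.15, adjusted p = 0.0082). No BAM library reached a microglia library for any of these 3. Mcm7 had 169, 133, 128 and 157 CPM in microglia against 142, 116, 106 and 122 in BAM, Mcm4 148, 121, 98.7 and 118 against 162, 94.6, 85.2 and 115, and Mcm6 335, 203, 230 and 234 against 341, 222, 171 and 251. These last 3 overlapped and were not called. Replicate 1, the R10 library, was the highest of its group for every one of the 6 in both populations.

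Summed over Mcm2 to Mcm7, E10.5 libraries held 3674 ± 256 CPM in microglia and 3517 ± 603 in BAM, and E18.5 libraries 1197 ± 194 and 946 ± 183. At E12.5 the sums were 1500 ± 90.5 and 2231 ± 165, and at E16.5 953 ± 29.4 and 1296 ± 59.1.

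Genes of origin firing added 2 calls at E12.5, Mcm10 (0.92 ± 0.27, adjusted p = 0.0261) and Gins2, a GINS subunit (0.80 ± 0.25, adjusted p = 0.0421), and the same 2 at E16.5 (0.82 ± 0.27 and 0.92 ± 0.26). Mcm10 had 41.4, 38.0 and 71.0 CPM in E12.5 microglia and 74.5, 102 and 103 in BAM, with microglia replicate 3 close to the lowest BAM library. Replicate 3 held the most BAM marker RNA of its group, while Pola1 and Chaf1a, also called, were lowest in it. The part of that marker RNA was not tested. The Mcm10 call at E12.5 was lost without any 1 of 4 libraries (microglia E12.5 replicates 1 and 2, BAM E12.5 replicates 2 and 3). At E18.5 Gins1, another GINS subunit, was lower in BAM, with 10.3, 12.54, 9.37 and 10.2 CPM against 15.4, 16.7, 16.4 and 15.2 in microglia (-0.69 ± 0.23, adjusted p = 0.0399). These groups did not overlap, but the call was lost in 7 of 8 fits that left out 1 library, with adjusted p up to 0.115. Cdc45, Cdc7, Dbf4, Gins3 and Gins4 were not called at any stage.

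In the clamp group, Rfc1, the large clamp loader subunit, was higher in BAM at E12.5 (68.2, 78.5 and 83.0 CPM against 104, 112 and 116, log2 0.55 ± 0.15, adjusted p = 0.0183). At E16.5 Rfc5 (0.57 ± 0.17, adjusted p = 0.0159) and Pcna (0.55 ± 0.17, adjusted p = 0.0281) were higher. Pcna had 139, 100.4 and 99.96 CPM in microglia and 182, 145 and 153 in BAM there, a gap of a few CPM between the nearest libraries. The Rfc1 call was lost without microglia E12.5 replicate 1 or without BAM E12.5 replicate 2 or 3, and the Rfc5 call without microglia E16.5 replicate 1 or 2 or BAM E16.5 replicate 3.

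Primase and polymerase genes gave 4 calls at E12.5, Pold1, Pola1, Pola2 and Prim1, and 1 at E16.5, Pold2. Pold1, the catalytic subunit of the lagging-strand polymerase, had 101, 108 and 113 CPM in microglia at E12.5 and 166, 210 and 232 in BAM (log2 0.94 ± 0.16, adjusted p = 6.6e-05). Every BAM library exceeded every microglia library by over 50 CPM. At E10.5 it had 253, 241, 229 and 221 CPM in microglia and 259, 202, 221 and 236 in BAM, which overlap, and in microglia it stayed between 90.9 and 96.4 CPM in group mean from E14.5 to E18.5. Pola1 had 65.5, 56.3 and 41.4 CPM in E12.5 microglia and 97.9, 98.4 and 109.8 in BAM, higher by 0.92 ± 0.21 (adjusted p = 0.00271), with no overlap. Prim1 was higher by 0.61 ± 0.16 (adjusted p = 0.00967) and Pola2, the accessory subunit of the same polymerase, by 0.52 ± 0.15 (adjusted p = 0.0172). Prim1 was already higher in BAM at E11.5, with 76.2, 63.6 and 75.3 CPM against 54.7, 42.0 and 37.2 (0.66 ± 0.16, adjusted p = 0.00669), a call lost without microglia E11.5 replicate 3. Pold2, an accessory subunit called at E16.5 (0.60 ± 0.20, adjusted p = 0.0369), lost its call in 4 of the 6 fits that left out 1 of the compared libraries.

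Lig1, the ligase that joins Okazaki fragments, was called higher in BAM at E12.5 (0.82 ± 0.19, adjusted p = 0.00334), E14.5 and E16.5 (0.77 ± 0.19, adjusted p = 0.00423), and 3 stages were also called for Tyms, the thymidylate synthase (E11.5, E12.5 and E14.5), and for Tk1 (E11.5, E12.5 and E16.5). In E12.5 microglia Lig1 had 72.3, 87.1 and 135 CPM and in BAM 144, 170 and 196, where the highest microglia value is that of replicate 3. The call at E12.5 was lost without microglia E12.5 replicate 1.

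Among the nucleotide supply genes, Tyms had 74.9, 107 and 98.5 CPM in E11.5 microglia and 151, 146 and 180.1 in BAM, which did not overlap (0.75 ± 0.18, adjusted p = 0.00545), and Tk1 differed at that stage by 0.76 ± 0.20 (adjusted p = 0.0127). Tk1 had 57.9, 55.8 and 74.1 CPM in E12.5 microglia and 101, 122 and 116 in BAM (0.88 ± 0.20, adjusted p = 0.00238), and 38.7, 47.0 and 48.2 against 113, 113 and 97.5 at E16.5 (1.32 ± 0.20, adjusted p = 6.8e-06). In BAM the gene had 103, 110 and 111 CPM at E11.5 and 70.8, 75.7 and 56.5 at E14.5, so that its E16.5 libraries lay near those of E11.5. Rrm1 followed the same order at E12.5 (0.67 ± 0.16) and E16.5 (0.68 ± 0.16) and the opposite at E18.5 (-0.45 ± 0.14, adjusted p = 0.0186).

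Rrm2 was not called at the stages where its partner Rrm1 was higher in BAM. It had 169, 167 and 184 CPM in E12.5 microglia and 173, 175 and 210 in BAM (log2 0.12 ± 0.18, adjusted p = 0.875), and 85.0, 80.8 and 98.9 against 80.4, 89.4 and 86.7 at E16.5 (0.00 ± 0.18). The populations overlapped at both stages, while at E14.5 microglia (145 and 139 CPM) lay above BAM (117, 108 and 111) without a call (-0.28 ± 0.20, adjusted p = 0.585). At E18.5 microglia had 160, 88.2, 102 and 130 CPM and BAM 82.7, 47.9, 52.1 and 66.6 (-1.05 ± 0.15, 2.07-fold lower in BAM, adjusted p = 2.62e-06), with every BAM library below every microglia library. It was the largest difference of any of the 45 genes at E18.5.

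Both CAF-1 genes, whose products deposit histones behind the fork, were higher in BAM at E12.5 and E16.5. Chaf1a had 54.7, 56.2 and 48.1 CPM in microglia and 101, 106 and 85.3 in BAM at E12.5 (0.89 ± 0.15, adjusted p = 6.47e-05), and 33.6, 31.3 and 32.4 against 63.7, 53.4 and 42.7 at E16.5 (0.76 ± 0.15, adjusted p = 0.000424). At E10.5 it had 146, 155, 158 and 163 against 163, 165, 149 and 130, and at E18.5 30.5, 39.3, 39.6 and 46.5 against 37.6, 35.9, 30.2 and 29.6, so that the populations overlapped at the first and last stage. Chaf1b differed by 0.49 ± 0.15 (adjusted p = 0.043) and 0.55 ± 0.16 (adjusted p = 0.0136). Of the single-strand binding genes, Rpa2 was higher in BAM at E12.5 (58.7, 76.3 and 75.6 CPM against 97.7, 107 and 131, 0.69 ± 0.17, adjusted p = 0.00662) and E16.5 (0.84 ± 0.18, adjusted p = 0.000563), and Rpa1 at E16.5 alone (0.41 ± 0.14, adjusted p = 0.0484).

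**Figure D5:**
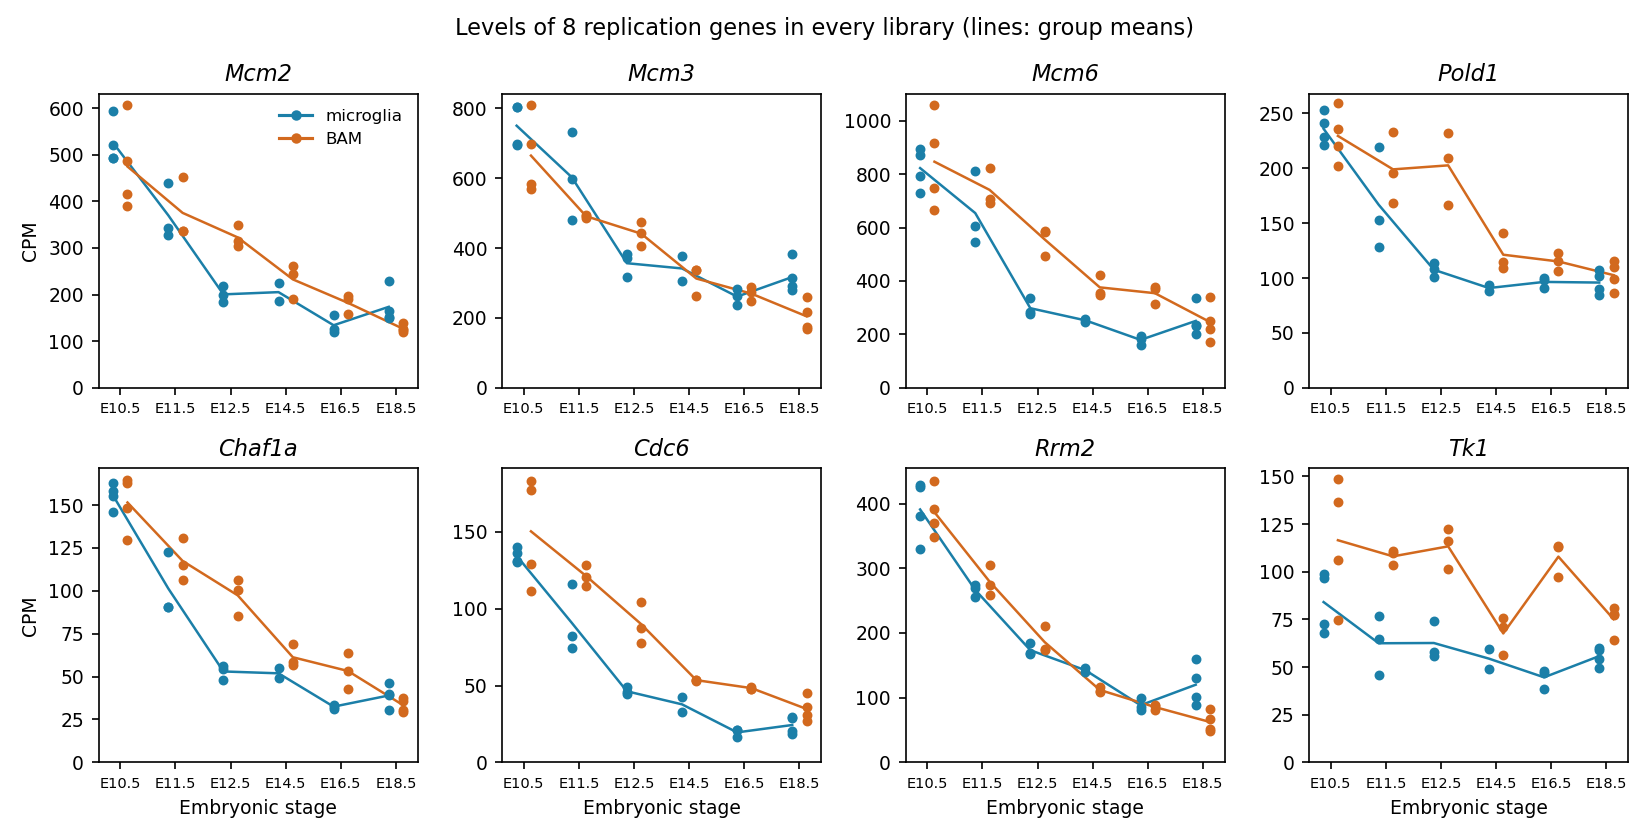
CPM (vertical axes, from 0) of Mcm2, Mcm3, Mcm6, Pold1, Chaf1a, Cdc6, Rrm2 and Tk1 in every library by stage (horizontal axes), with lines through the group means of microglia and BAM. Pold1 and Chaf1a separate at E12.5 (101 to 113 against 166 to 232 CPM for Pold1), and Rrm2 in microglia lies above BAM at E14.5 and E18.5 (88.2 to 160 against 47.9 to 82.7 CPM at E18.5).

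In 18 genes no stage gave a call between the populations: Orc1, Orc2, Orc6, Cdt1, Mcm7, Cdc45, Cdc7, Dbf4, Gins3, Gins4, Rfc2, Rfc3, Rfc4, Prim2, Pold3, Pole, Pole2 and Fen1. That a test did not pass does not show equal levels. Orc2 had a log2 value below 0 at every stage, from -0.21 ± 0.21 at E12.5 to -0.52 ± 0.23 at E14.5, and -0.51 ± 0.18 at E18.5 (adjusted p = 0.0526). Its 4 E18.5 libraries held 41.4, 35.4, 29.5 and 26.5 CPM in microglia and 27.5, 19.3, 26.2 and 27.4 in BAM, which overlap. Of its exon bases, 29.8% are shared with Nif3l1, and reads of the 2 genes there cannot be told apart by these counts.

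The calls at the middle stages did not rest on all libraries equally. The count of 19 at E12.5 was 10 without microglia E12.5 replicate 1, 10 without BAM E12.5 replicate 2 and 18 without microglia E12.5 replicate 3, and that of 16 at E16.5 was 10 without microglia E16.5 replicate 2. The 3 calls at E11.5 fell to 1 without microglia E11.5 replicate 3. The E12.5 microglia libraries had the higher neural progenitor sums given above, except against BAM E12.5 replicate 1, and 170 to 247 CPM of 8 erythroid markers against 145 to 195 in BAM. Their part in the result was not tested. Without BAM E18.5 replicate 3 or microglia E18.5 replicate 1, 1 gene was called higher in BAM at E18.5.

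Whether the difference between the populations itself changed with stage was tested within the same fit. From E10.5 to E12.5 it rose in BAM's favour for Pold1 (0.99 ± 0.21, adjusted p = 0.00544), Chaf1a (0.94 ± 0.20, adjusted p = 0.00528) and Mcm2 (0.86 ± 0.23, adjusted p = 0.0432), and fell for none, where 0.675% of all tested genes were called higher and 1.26% lower. All 45 values were above 0, with a median of 0.47 against 0.01 over all tested genes. The Mcm2 values behind it began at 593, 494, 494 and 521 CPM in E10.5 microglia and 607, 487, 389 and 415 in E10.5 BAM. DESeq2 called 6, and edgeR called 7 without BAM E10.5 replicate 1 and 9 with adjacent library numbers as a block. This contrast spans the series, with E10.5 in R10 and E12.5 in R8, in both populations alike.

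From E12.5 to E18.5 the difference fell for 11 genes, against 1.23% of all tested genes lower and 0.961% higher, and rose for none. They were Mcm2 (-1.26 ± 0.23, adjusted p = 0.00118), Chaf1a (-1.21 ± 0.20, adjusted p = 0.000343), Rrm2 (-1.17 ± 0.23, adjusted p = 0.00277), Rrm1 (-1.12 ± 0.21), Mcm5 (-1.05 ± 0.18), Mcm3 (-1.05 ± 0.23), Mcm6 (-1.05 ± 0.27), Tyms (-0.96 ± 0.23), Pold1 (-0.93 ± 0.21), Mcm4 (-0.87 ± 0.24) and Mcm7 (-0.83 ± 0.21). All 6 genes of the Mcm ring are among them. Of the 45 values, 44 were below 0 (median -0.67, all tested 0.03). The count fell to 7 without microglia E18.5 replicate 1, BAM E12.5 replicate 2 or BAM E18.5 replicate 3, and was 11 with the R10 libraries of E18.5 left out. Both contrasts use the E12.5 libraries, so the 3 genes called in both are not independent observations.

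Other genes of the pathway were counted from lists beside the 45. Of 38 further licensing, firing and fork genes, BAM were higher in 7 and lower in 1 at E12.5, higher in 8 and lower in 1 at E16.5, and higher in 2 and lower in 3 at E18.5. As shares these were 18.4% and 2.63% at E12.5 (4.12% and 4.42% of all tested genes) and 21.1% and 2.63% at E16.5 (7.09% and 6.74%), while the 5.26% and 7.89% at E18.5 lay near the 6.7% and 8.75% of all tested genes. The gene lower at E12.5 and E16.5 was Dna2, the nuclease and helicase that trims long Okazaki flaps, which was lower in BAM at every stage. It had 159, 161, 103 and 102 CPM in microglia and 67.2, 63.8, 39.1 and 55.5 in BAM at E10.5 (-1.22 ± 0.16, adjusted p = 1.87e-06), 106, 101 and 89.1 against 26.8, 29.0 and 30.0 at E12.5 (-1.77 ± 0.19, adjusted p = 7.76e-09), and 58.9, 44.2, 49.3 and 57.8 against 18.49, 15.8, 18.6 and 16.7 at E18.5 (-1.70 ± 0.16, adjusted p = 3.49e-10). No BAM library reached a microglia library at these 3 stages. Samhd1, which degrades deoxynucleotides and is active outside S phase, was higher in BAM from E12.5 on, at 86.5, 88.0 and 106 CPM in microglia and 172, 169 and 191 in BAM at E12.5 (0.94 ± 0.16) and 53.8, 63.1, 68.4 and 77.1 against 174, 140, 179 and 162 at E18.5 (1.22 ± 0.14). From E10.5 to E18.5, 30 of the 38 fell and 1 rose in microglia, and 31 fell and 1 rose in BAM. Of all tested genes 14.4% were called lower and 20.9% higher in microglia, and 14.8% lower and 22.8% higher in BAM. E10.5 libraries are all of series R10, while at E18.5 only replicate 1 of each population is.

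Of 16 E2F and pocket protein genes, BAM were higher in 2 at E12.5, Rbl1 (0.69 ± 0.20) and E2f5 (1.08 ± 0.33), where 4.12% of all tested genes were higher. At E14.5 E2f3 was lower in BAM (-1.15 ± 0.36), as were 3.25% of all tested genes. At E18.5 BAM were lower in 5, E2f2 (-1.81 ± 0.39), Lin9 (-0.88 ± 0.20), E2f3 (-1.23 ± 0.28), E2f7 (-0.61 ± 0.19) and Rbl1 (-0.54 ± 0.18), and higher in 1, E2f1 (0.87 ± 0.17, adjusted p = 0.000152), the activator best known for S phase entry. Of all tested genes 8.75% were lower and 6.7% higher at that stage, so 1 higher call among 16 is near the share of all genes. The same list had 3 genes higher in BAM at E16.5, E2f1 (0.90 ± 0.19, adjusted p = 0.00069), E2f5 (0.95 ± 0.33) and Rbl2 (0.78 ± 0.19). It had 1 lower in BAM, E2f3 (-1.001 ± 0.33). Of all tested genes 7.09% were higher and 6.74% lower at E16.5.

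Genes of mitosis, 20 in all, were set beside the replication genes because they mark the end of the same cycle. At E12.5 BAM were higher in 1 of 20, Aurkb (0.62 ± 0.16, adjusted p = 0.00873), at E16.5 in 8, and at E18.5 they were lower in 13, among them Bub1 (-1.23 ± 0.17), Top2a (-0.76 ± 0.12) and Ccnb1 (-1.002 ± 0.16). Called higher at E12.5 were 42.2% of replication genes and 5% of mitosis genes (4.12% of all tested genes), although the medians were 0.46 and 0.36 and 18 of the 20 mitosis values were above 0. At E16.5 the shares were 35.6% and 40% (7.09% of all), with medians of 0.48 in both lists. Called lower at E18.5 were 13.3% and 65% (8.75% of all), with medians of -0.13 and -0.58. In microglia from E16.5 to E18.5, 11 of the 20 mitosis genes rose, beside the 2 replication genes. Among the 11 were Ccna2 (1.06 ± 0.14), Ccnb1 (1.11 ± 0.17) and Top2a (0.81 ± 0.13). Of all tested genes 0.403% were called higher in that step, and 0.155% without microglia E18.5 replicate 1, the R10 library. The count of mitosis calls without that library is not given here. No test compared the lists.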

How the data were processed

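Microglia and BAM were sorted from C57Bl/6 embryo brains, and 2 ng of RNA per library was amplified by a modified SMARTSeq v2 protocol and sequenced as paired ends, per the labels' protocols. The authors deposited raw read counts per Ensembl gene. Per the submitters' processing notes the tools were STAR and featureCounts with GRCm38, and their versions and strand setting are not given in the sources used here. The counts are as deposited, 10692763 to 47182711 per library (median 22395273), which bears on the counting error of low genes. Entries of 2 (49977) outnumbered entries of 1 (21280), and entries of 4 (30062) those of 3 (12637). If both mates of a pair were counted, that error is larger than the totals imply, but the sources do not state it. The genes and lists were chosen with earlier results of these data known.

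CPM is a count scaled to its library's total. Tests used edgeR 4.0.16 (R 4.3.3) with TMM factors, filterByExpr, 1 coefficient per group and the quasi-likelihood F test over 39 libraries, 12 groups and 22061 genes, with Benjamini-Hochberg adjustment. The rule named, in each comparison and role, the called gene with the largest change, with values of every library for Mcm2 to Mcm7 and the 3 largest in the main contrasts; other genes were named after their values were seen. In simulated counts for BAM against microglia at E12.5 over 22061 genes, 49% of 100 genes changed 2-fold and 84% of 100 changed 4-fold were recovered, with 10 false calls. Alternatives were RLE factors, no filter, DESeq2 1.42.0, the compared groups alone, 1 library left out, a block of adjacent library numbers and handling of the series R10. Replicate numbers were given in accession order. ERCC spike-ins were not used here.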

Additional observations from a re-analysis of the deposited data

Results flagged for a closer look

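Of 140 groups of 4 libraries of 1 gene, 6 held a library set apart from the other 3, where chance gives about 1 in 20. In E18.5 microglia these were Gins3 in replicate 2 (14.87 CPM, next 10.16), Pole2 in replicate 3 (6.143 CPM, next 8.136) and Rrm1 in replicate 1 (319.8 CPM, next 217.6). In BAM they were Fen1 in E10.5 replicate 3 (8.595 CPM, next 11.46), Orc2 in E18.5 replicate 2 (19.33 CPM, next 26.25) and Pole2 in E18.5 replicate 1 (11.3 CPM, next 6.805). Both replicates 1 of E18.5 are R10 libraries.

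The difference between BAM and microglia changed from E10.5 to E12.5 for Chaf1a (0.94 on the log2 scale), Mcm2 (0.86) and Pold1 (0.99). From E12.5 to E18.5 it changed for 11 genes, by the test of that change in the edgeR fit. The largest change in each role was that of Chaf1a (-1.21), Rrm2 (-1.17), Mcm2 (-1.26) and Pold1 (-0.93).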

How the results depend on the processing

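The labels carry no replicate numbers, but 19 pairs of a microglia and a BAM library of the same stage have adjacent library numbers, and a fit with these pairs as a block was run for the comparisons between the populations. Whether adjacent libraries share embryos is not stated. Of the values of single named genes under alternatives, 772 kept their call, 107 lost it and 0 reversed. Calls higher in BAM at E11.5 (3) became 1 with the compared groups only and 6 with the block. At E14.5 (2) they became 1 with RLE factors, 0 with no filter and 1 with the compared groups only. At E18.5 they became 1 higher with DESeq2 and 1 with the block, and 11 lower with the block. Calls lower in microglia at E11.5 against E10.5 became 27 with DESeq2. Calls higher in microglia at E18.5 against E16.5 became 1 with RLE factors, 5 with DESeq2, 0 with the compared groups only and 1 without the R10 libraries. Calls lower in BAM at E11.5 against E10.5 became 1 with no filter, 8 with DESeq2 and 0 with the compared groups only, and at E18.5 against E16.5 0, 2 and 0 in the same order and 2 without the R10 libraries. The change from E10.5 to E12.5 gave 6 with DESeq2 and 9 with the block. The cause was not tested.

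Leaving out 1 library gave, for BAM against microglia, 0 to 1 higher at E10.5, 1 to 4 at E11.5, 10 to 19 at E12.5, 0 to 2 at E14.5, 10 to 16 at E16.5, and 0 to 1 higher and 4 to 8 lower at E18.5. In microglia it gave 6 to 17 lower from E10.5 to E11.5, 12 to 15 from E12.5 to E16.5, 0 to 5 higher from E16.5 to E18.5 and 42 to 44 lower from E10.5 to E18.5. In BAM it gave 0 to 4, 11 to 29, 0 to 1 and 45 to 45 lower in the same order. The changes of the difference gave 2 to 7 higher and 7 to 13 lower. Counting error is larger for genes such as Orc1, Fen1 and Gins1, with few counts per library.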
